A study of Homo sapiens with 10 samples.

Results

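The mRNAs described here are those of 29 genes of cholesterol and fatty acid synthesis, chosen by pathway and not by a rule on their values: the enzymes in pathway order, followed by the regulators of the sterol regulatory element binding proteins (SREBPs). Earlier results of these data were known when the genes were chosen. All 29 were found by their GENCODE 29 symbol among the 94946 entries of the count table. The study sequenced total RNA from PC3, an established human line of prostate carcinoma taken from a metastasis in bone, and from the extracellular vesicles (EVs) these cells shed. EVs were collected at 3 centrifugation steps, named 2.8K, 10K and 100K with no unit given, and each pellet type has 3 libraries (called EV 2.8K, EV 10K or EV 100K with its replicate number). Whole PC3 cells have 1 library, so the cell library carries no replicate error of its own. DMEM with 10% fetal bovine serum was the medium throughout, no group received a treatment, and no genotype other than that of PC3 was used. The labels number the EV libraries as sets and do not say that the sets were separate cultures, so p-values measure the spread between these libraries, which may be technical.

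Cholesterol is built from acetyl-CoA. Enzymes of the mevalonate pathway make isoprenoid units, farnesyl diphosphate is the branch point towards prenylated proteins, dolichol and ubiquinone, and squalene is closed into lanosterol and trimmed to cholesterol by enzymes of the endoplasmic reticulum membrane. SREBPs are membrane-bound transcription factors that SCAP escorts to the Golgi when sterols are low and that INSIG proteins hold back when sterols are high; their targets include most of these enzymes, INSIG1 and the genes of fatty acid synthesis. Prostate cancer cells are known for making fatty acids through FASN.

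Library totals ranged from 5424964 to 28735081 counts, and a count of 0 allows up to 0.104 CPM (counts per 1000000 counts of the library) in the cell library and up to 0.553 CPM in the shallowest EV library. Mitochondrially encoded genes took 12.9%, 4.92% and 4.81% of counts in replicates 1 to 3 of EV 2.8K, with a mean of 0.954% for EV 10K and of 0.00645% for EV 100K. Replicate 1 of EV 2.8K also stood apart for the lipid genes: it was the lowest of the 3 EV 2.8K libraries for 22 of the 29, against 47.0% of all genes tested. In their summed share, replicate 1 was the lowest library of EV 10K and of EV 100K as well. For EV 100K against EV 2.8K, the value without EV 2.8K replicate 1 is given where leaving it out ended or made a call or moved a difference by over 1.5 times. The summed CPM of 5 markers of PC3 and epithelial cells (KRT8, KRT18, KRT19, EPCAM and VIM) ranged from 2481 to 3141 for EV 2.8K, from 1889 to 2519 for EV 10K and from 909 to 1087 for EV 100K, with 1776 in the cells. The prostate-specific genes KLK2 and KLK3 were at 0 in all 10 libraries, as were the leukocyte genes PTPRC and CD3E. Blood and serum genes were at 0 outside EV 10K, where they summed to at most 2.77 CPM. Of the 4 fibroblast genes DCN was at 0 throughout, and the list summed to between 3.20 and 27.4 CPM for EV 2.8K, 2.27 and 5.28 for EV 10K, and 1.91 and 4.58 for EV 100K. The part of these differences in the results below was not tested. In pelleted vesicles, fewer vesicles that carry an mRNA and fewer copies per vesicle cannot be told apart.

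The 29 mRNAs took a summed share of 0.219% ± 0.0881 of all counts for EV 2.8K, 0.161% ± 0.0266 for EV 10K and 0.145% ± 0.0206 for EV 100K (SD, n = 3 each), beside 0.205% in the cell library. The EV 2.8K libraries lay at 0.133%, 0.215% and 0.309%, those of EV 10K at 0.133%, 0.163% and 0.187%, and those of EV 100K at 0.121%, 0.156% and 0.157%. The pellet types overlapped in this share, which rose from replicate 1 to replicate 3 within each pellet. Single mRNAs went in opposite directions, as described by pathway step. All 29 genes passed the filter on low counts. All levels are CPM scaled by TMM factors, and differences are log2 fold changes with their standard error (SE) from edgeR's quasi-likelihood test, called at a Benjamini-Hochberg adjusted p under 0.05 over all genes tested.

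**Figure D1:**
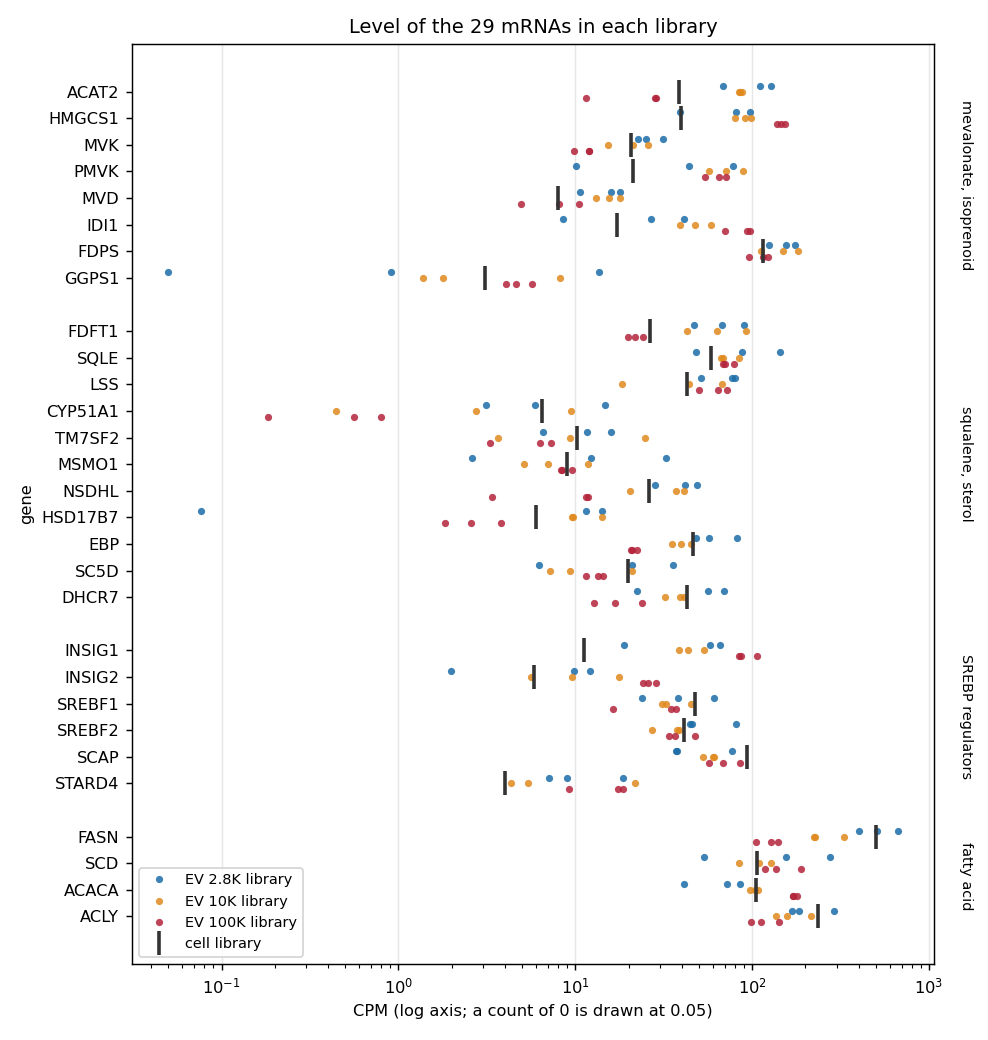
CPM of the 29 mRNAs in each of the 10 libraries on a log axis, grouped by pathway step, with 1 point per library and values of 0 drawn at the lower edge. The EV 100K points lie below the EV 2.8K points for ACAT2, FDFT1, NSDHL and FASN and above them for HMGCS1, IDI1 and ACACA.

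Between the slowest and the fastest pellet, EV 100K against EV 2.8K, 11 of the 29 mRNAs changed: 3 rose (HMGCS1, IDI1 and ACACA) and 8 fell (ACAT2, MVK, FDFT1, NSDHL, EBP, DHCR7, FASN and ACLY). In this comparison 25.8% of the 15525 genes tested were called, 12.0% higher and 13.8% lower, and 12.8% and 16.7% of the protein-coding genes. The 10.3% of the lipid mRNAs that rose lie near the background and the 27.6% that fell lie above it. That excess rests on few mRNAs: 5 of the 29 fell without EV 2.8K replicate 3 (1970 of 16450 genes) and 5 without EV 100K replicate 1 (1502 of 17125 genes). The call of MVK was lost in 12 of 16 other settings. The median log2 difference of the 29 was -0.55 against -0.06 for all genes, and 21 of 29 values (72.4%) were negative against 51.9% of all genes. The median of the 29 was -0.29 without EV 2.8K replicate 3 (0.07 for all genes) and -0.75 without EV 2.8K replicate 1. The 3 libraries of each pellet did not overlap for 15 of the 29, with EV 100K higher for 5 and lower for 10; over all genes tested 23.5% were separate in the higher and 21.0% in the lower direction. For 18 of the 29 the test called no difference in any of the 3 pellet comparisons.

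The EV 10K mean lay between those of the other pellets for 17 of the 29, above both for 4 and below both for 8. For EV 10K against EV 2.8K, FASN fell and 28 mRNAs did not pass, in a comparison where 6.38% of genes were called, 4.15% higher and 2.22% lower (4.29% and 2.68% of protein-coding genes). At an unadjusted p under 0.05, 2 lipid mRNAs were higher and 2 lower in edgeR, where 11.0% and 9.74% of genes were. DESeq2 called none higher and 1 lower of 28, against 7.56% and 5.50% of its genes. EV 100K against EV 10K gave 4 falls (ACAT2, FDFT1, NSDHL and FASN) and 25 mRNAs that did not pass, against 10.9% of genes called, 3.70% higher and 7.23% lower (4.46% and 8.70% of protein-coding genes). There 3 were higher and 8 lower at an unadjusted p under 0.05 (10.1% and 12.9% of genes), and DESeq2 called 2 higher and 5 lower of 28 (6.90% and 8.78% of its genes). Libraries did not overlap between EV 10K and EV 2.8K for ACACA, which was higher in EV 10K, and for EBP, SREBF2 and FASN, which were lower (11.4% and 10.1% of genes). Between EV 100K and EV 10K they did not overlap for 5 mRNAs higher and 9 lower (19.2% and 16.7% of genes). These comparisons share libraries, so their calls are not independent of each other. From EV 2.8K over EV 10K to EV 100K, 12 of the 29 had descending means and 5 had ascending means (HMGCS1, IDI1, INSIG2, SCAP and ACACA). The shares of these orders of means, and of EV 10K lying between or outside the other pellets, were not counted over all genes.

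**Figure D2:**
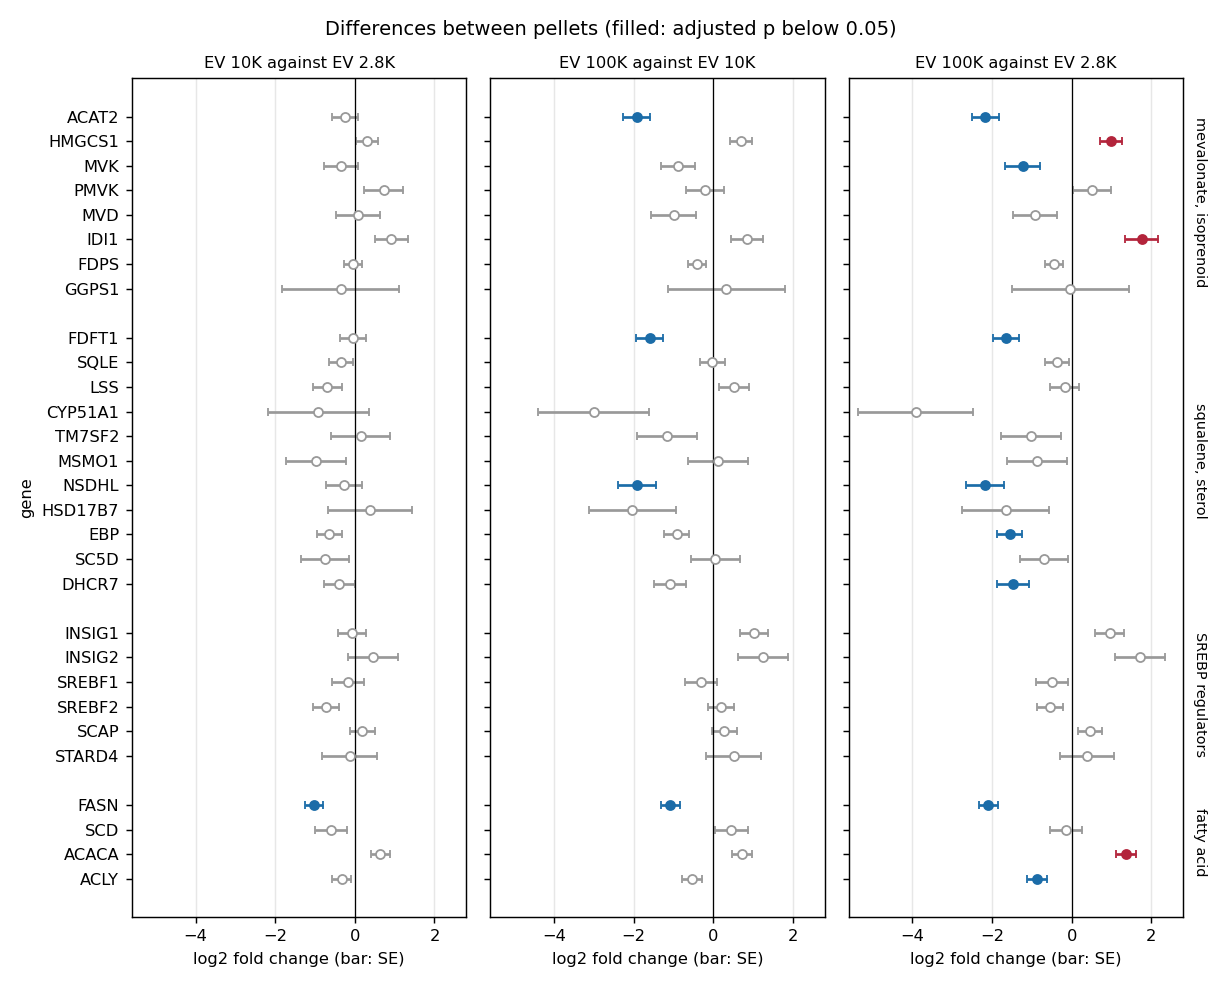
Log2 difference ± SE of each mRNA in the 3 comparisons of pellets, grouped by pathway step, with filled points for an adjusted p under 0.05. In EV 100K against EV 2.8K the points of all 11 enzymes from FDFT1 to DHCR7 lie below 0, while HMGCS1, IDI1 and ACACA are filled points above 0.

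The mevalonate and isoprenoid enzymes, 8 mRNAs from ACAT2 to GGPS1, moved in both directions between EV 100K and EV 2.8K: 2 rose, 2 fell and 4 did not pass, with a median log2 difference of -0.24. HMGCS1 encodes the cytosolic enzyme that makes HMG-CoA and lies on chromosome 5 (GRCh38, 43289395 to 43313512, minus strand). Its levels were 38.9, 97.8 and 80.8 CPM among the EV 2.8K libraries, 98.2, 80.1 and 90.8 in EV 10K, and 153, 138 and 146 in EV 100K. Every EV 100K library was above every other EV library, while EV 2.8K and EV 10K overlapped. The log2 difference between EV 100K and EV 2.8K was 1.00 (SE 0.28, adjusted p = 0.0123) and, without EV 2.8K replicate 1, 0.70 (adjusted p = 0.0198). Against EV 10K, EV 100K was 0.69 higher on the log2 scale, which did not pass (adjusted p = 0.133).

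IDI1, the isomerase that interconverts the 5-carbon isoprenoid building blocks, lies on chromosome 10 (1039152 to 1049170, minus strand). It stood at 8.48, 27.0 and 41.4 CPM in EV 2.8K, at 39.1, 58.5 and 47.4 in EV 10K, and at 97.3, 70.6 and 93.4 in EV 100K. The EV 100K libraries were separate from all others, and the highest EV 2.8K library reached into the EV 10K range. IDI1 rose by a log2 difference of 1.76 (SE 0.41, adjusted p = 0.00362) in EV 100K against EV 2.8K, a ratio of means of 3.40, and by 1.35 (adjusted p = 0.00173) without EV 2.8K replicate 1.

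In the opposite direction went ACAT2, the cytosolic thiolase that joins acetyl-CoA units (chromosome 6, 159760328 to 159779055, plus strand). Its values were 68.3, 110 and 127 CPM among the EV 2.8K libraries, 87.1, 85.6 and 83.9 in EV 10K, and 11.5, 28.8 and 28.1 in EV 100K. All EV 100K libraries lay below all others, and EV 10K lay within the range of EV 2.8K. ACAT2 fell by 2.17 on the log2 scale against EV 2.8K (SE 0.34, adjusted p = 9.48e-05) and by 1.92 against EV 10K (SE 0.34, adjusted p = 0.00102). Exons of ACAT2 overlap opposite-strand exons of SOD2-OT1, SOD2 and TCP1, by 2996 bases when summed gene by gene. TCP1 and SOD2 went the other way, with log2 differences of 0.79 (adjusted p = 0.00858) and 1.46 (adjusted p = 0.000339) in EV 100K against EV 2.8K. The sources used here do not state whether the counting used strand, so reads of these genes may not be kept apart.

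MVK, mevalonate kinase, was measured at 22.5, 25.2 and 31.3 CPM among the EV 2.8K libraries, 21.1, 25.7 and 15.3 in EV 10K, and 11.9, 9.90 and 11.9 in EV 100K. Its EV 100K libraries were the 3 lowest. MVK fell by 1.23 on the log2 scale in EV 100K against EV 2.8K (SE 0.43, adjusted p = 0.0425). This call sits close to the threshold: it was lost in 12 of 16 other settings, at adjusted p from 0.0511 to 0.175, among them each fit that left out 1 library other than EV 2.8K replicate 1.

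The 4 other enzymes of this stretch did not pass in any pellet comparison. PMVK, phosphomevalonate kinase, ranged from 10.2 to 78.0 CPM in EV 2.8K, where replicate 1 was the low library, and from 54.1 to 88.8 CPM in the other pellets; its log2 difference between EV 100K and EV 2.8K was 0.52 with that library and 0.06 without it. MVD, mevalonate diphosphate decarboxylase, had 10.6 to 17.8 CPM in EV 2.8K and 4.93 to 10.5 in EV 100K, a log2 difference of -0.92 (adjusted p = 0.261). FDPS, which makes farnesyl diphosphate, had the smallest relative spread of the group, from 96.2 to 182 CPM over all 9 EV libraries. GGPS1, which extends it to geranylgeranyl diphosphate, was at 13.7, 0.905 and 0 CPM in EV 2.8K, so replicate 1 was the high library there. The difference of GGPS1 between EV 100K and EV 2.8K (log2 -0.03, SE 1.46) cannot be resolved at this spread; without replicate 1 it was 3.34 (SE 1.69, adjusted p = 0.166), and 1422 of its exonic bases are shared with TBCE on the same strand.

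Fitted differences of the squalene and sterol enzymes between EV 100K and EV 2.8K lay on 1 side of 0. Of the 11 mRNAs for enzymes of the endoplasmic reticulum membrane, 4 fell in EV 100K against EV 2.8K (FDFT1, NSDHL, EBP and DHCR7) and 7 did not pass; all 11 fitted values were negative, with a median log2 difference of -1.47. In EV 100K against EV 10K, FDFT1 and NSDHL fell and the median was -1.09, with 8 fitted values negative and 3 positive. FDFT1, squalene synthase, makes the committed precursor of sterols. It stood at 47.0, 67.8 and 90.3 CPM among the EV 2.8K libraries, 43.0, 63.2 and 92.4 in EV 10K, and 19.8, 21.8 and 24.3 in EV 100K. The first and middle pellets covered similar ranges and every EV 100K library lay below both. FDFT1 fell by 1.64 on the log2 scale against EV 2.8K (SE 0.33, adjusted p = 0.00116) and by 1.60 against EV 10K (SE 0.33, adjusted p = 0.00398).

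NSDHL, a dehydrogenase that takes part in removing methyl groups from the sterol ring, lies on chromosome X (152830967 to 152869729, plus strand). Its levels were 28.4, 41.6 and 49.0 CPM among the EV 2.8K libraries, 20.4, 37.3 and 41.3 in EV 10K, and 3.37, 11.7 and 11.4 in EV 100K. EV 100K was again separate below both other pellets, with replicate 1 the lowest library. NSDHL fell by 2.17 (SE 0.48, adjusted p = 0.0023) against EV 2.8K and by 1.91 (SE 0.48, adjusted p = 0.0134) against EV 10K. The second call was lost without EV 10K replicate 2 (adjusted p = 0.05, just above the threshold before rounding), EV 10K replicate 3 (0.0674) or EV 100K replicate 1 (0.0733).

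EBP, the sterol isomerase also known as emopamil binding protein, lies on chromosome X (48521158 to 48528716, plus strand). It was at 48.3, 81.8 and 57.0 CPM among the EV 2.8K libraries, 39.7, 45.4 and 35.1 in EV 10K, and 21.0, 22.4 and 20.7 in EV 100K. The 3 pellets formed 3 separate ranges in descending order, and the EV 100K libraries had an SD of only 0.896 CPM. EBP fell by 1.55 on the log2 scale in EV 100K against EV 2.8K (SE 0.31, adjusted p = 0.00105), and the difference of -0.92 from EV 10K did not pass (adjusted p = 0.0678).

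DHCR7, which reduces 7-dehydrocholesterol to cholesterol, lies on chromosome 11 (71428193 to 71452868, minus strand). Its levels were 22.5, 56.1 and 69.3 CPM among the EV 2.8K libraries, 32.3, 41.4 and 39.3 in EV 10K, and 12.8, 16.7 and 24.0 in EV 100K. EV 2.8K replicate 1 reached down into the EV 100K range. DHCR7 fell by 1.47 on the log2 scale (SE 0.41, adjusted p = 0.0117) with that library and by 1.82 (adjusted p = 0.000337) without it; the call was lost without EV 2.8K replicate 3 (adjusted p = 0.0748) or EV 100K replicate 1 (adjusted p = 0.0679).

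CYP51A1, the lanosterol demethylase, had the widest fitted difference of the 29 and was a scarce mRNA. It stood at 3.13, 5.91 and 14.8 CPM among the EV 2.8K libraries, 0.444, 9.43 and 2.75 in EV 10K, and 0.561, 0.183 and 0.794 in EV 100K, the last from 4, 1 and 5 counts. Its EV 100K libraries were separate below EV 2.8K, but the log2 difference of -3.92 (SE 1.44) did not pass (adjusted p = 0.0538). Without EV 2.8K replicate 1 it was -4.29 with an adjusted p of 0.0201. Its 3584 exonic bases overlap other annotated genes on the same strand, by 2943 bases when summed gene by gene. A base covered by several of those genes is counted for each. Pseudogenes by name (CYP51A1P1 and CYP51A1P2) also carried counts in these libraries, so the count of CYP51A1 is uncertain. HSD17B7, a keto-reductase of the pathway, had 1 count in EV 2.8K replicate 1 (0.0764 CPM), 11.5 and 14.2 CPM in the other EV 2.8K libraries, 9.56 to 14.2 CPM in EV 10K and 1.82 to 3.81 in EV 100K. Its log2 difference of -1.65 did not pass with that library (adjusted p = 0.314) and was -2.23 without it (adjusted p = 0.0227). Its pseudogene HSD17B7P2 held 13 counts in that library and 182 over all libraries, so the count of HSD17B7 is uncertain too.

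SQLE, LSS, TM7SF2, MSMO1 and SC5D did not pass in any pellet comparison. SQLE, squalene epoxidase, ranged from 48.0 to 144 CPM in EV 2.8K and from 66.9 to 84.0 CPM in the other pellets, with a log2 difference of -0.37 between EV 100K and EV 2.8K (95% interval -0.98 to 0.24), and of -0.68 without EV 2.8K replicate 1 (-1.16 to -0.19, adjusted p = 0.0507). LSS, which closes the ring to lanosterol, differed by -0.17 (95% interval -0.88 to 0.55), and by -0.34 without that library (-1.05 to 0.37). All 4 intervals exclude a log2 difference of the size of ACAT2 and NSDHL. TM7SF2, a sterol reductase, MSMO1, the methyl oxidase, and SC5D, a desaturase, had log2 differences of -1.02, -0.86 and -0.69 with SEs of 0.75, 0.75 and 0.60. Their EV 2.8K libraries spread from 2.60 to 32.6 CPM for MSMO1 and from 6.26 to 35.7 CPM for SC5D, with replicate 1 lowest in each; without it their differences were -1.36 and -1.11, which did not pass (adjusted p = 0.106 and 0.123).

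**Figure D3:**
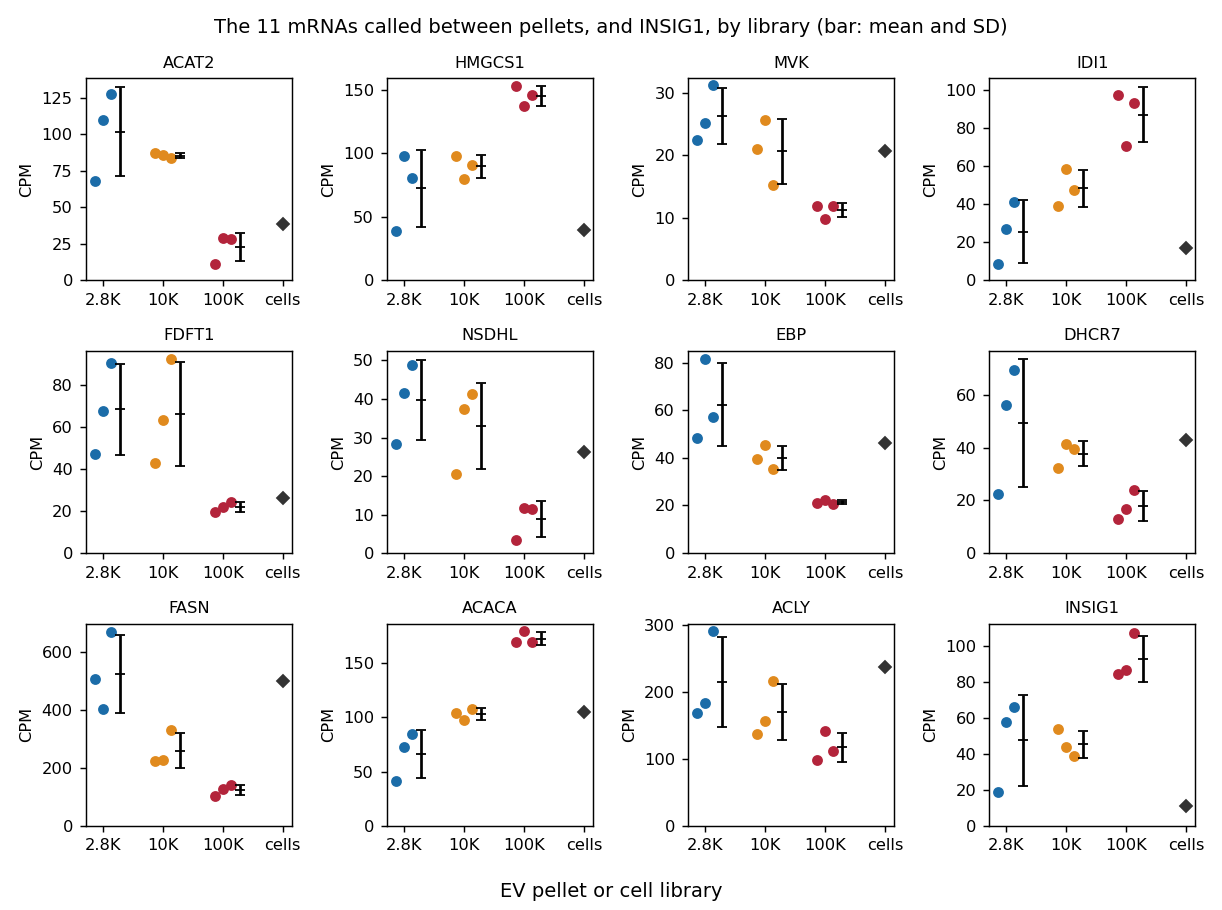
CPM per library for the 11 mRNAs called in at least 1 pellet comparison and INSIG1, with the mean and SD of the 3 libraries of each pellet and the cell library as a diamond. For FDFT1 and NSDHL the EV 2.8K and EV 10K libraries cover similar ranges, and for ACAT2 the EV 10K libraries lie close together within the range of EV 2.8K. EV 100K lies below both pellets for ACAT2, FDFT1 and NSDHL, while FASN and EBP descend in 3 separate ranges.

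The 6 regulators did not pass in any pellet comparison, and their median log2 difference between EV 100K and EV 2.8K was 0.42. INSIG1, which retains the SCAP-SREBP complex in the endoplasmic reticulum and is itself an SREBP target (chromosome 7, 155297776 to 155310235, plus strand), had 18.9, 57.7 and 65.9 CPM among the EV 2.8K libraries, 53.6, 43.6 and 38.6 in EV 10K, and 84.0, 86.3 and 107 in EV 100K. All EV 100K libraries lay above all other EV libraries. The log2 difference from EV 2.8K was 0.96 (SE 0.36, adjusted p = 0.0576) and without EV 2.8K replicate 1 it was 0.58 (adjusted p = 0.111). It passed in the fits without EV 2.8K replicate 2 or replicate 3. The log2 difference of INSIG1 from EV 10K was 1.02 (adjusted p = 0.08). INSIG2, its paralog, had 12.1, 9.78 and 1.99 CPM among the EV 2.8K libraries, 9.56, 17.6 and 5.59 in EV 10K, and 24.3, 25.7 and 28.6 in EV 100K. EV 100K was separate above both pellets here too, and the log2 difference of 1.71 (SE 0.63) did not pass (adjusted p = 0.0548). Leaving out EV 2.8K replicate 1 gave 2.14 for INSIG2 (adjusted p = 0.0198).

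For the transcription factors, the SREBF1 libraries overlapped across pellets, and those of SREBF2 lay lower in EV 10K than at the slowest spin, with a log2 difference of -0.73 that did not pass (adjusted p = 0.204), while EV 100K overlapped both. SREBF1, which mainly drives fatty acid genes, ranged from 16.3 to 60.5 CPM over the 9 EV libraries, and SREBF2, which mainly drives cholesterol genes, from 27.0 to 81.5 CPM, with EV 2.8K replicate 3 the highest library for both. SCAP, the escort of SREBP, ranged from 37.3 to 85.2 CPM and STARD4, a carrier of cholesterol between membranes, from 4.33 to 21.8 CPM. Their log2 differences between EV 100K and EV 2.8K lay between -0.55 for SREBF2 and 0.47 for SCAP, and none passed. Without EV 2.8K replicate 1 they were 0.30 for SCAP, 0.13 for STARD4 and -0.75 for SREBF1 (-0.48 with it). SCAP passed as higher without EV 2.8K replicate 3 (adjusted p = 0.0265).

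SREBPs bind sterol response elements, and SREBF2 is itself a target of its product, so the promoters of the 29 genes were searched for the letters TCACNCCAC on both strands, from 250 bases before to 50 bases after the gene start in the RefSeq table (GRCh38.p14). The table held 25 of the 29 genes; ACAT2, FDFT1, SQLE and FASN had no entry. The SREBF2 promoter is printed because it was the only one of the 25 with a match (4.0%), against 251 of 22198 protein-coding genes (1.131%). The 250 bases before the gene start, chr22:41832855-41833104 on the plus strand, are given below with the match in capitals, which begins 133 bases before the start.
SREBF2: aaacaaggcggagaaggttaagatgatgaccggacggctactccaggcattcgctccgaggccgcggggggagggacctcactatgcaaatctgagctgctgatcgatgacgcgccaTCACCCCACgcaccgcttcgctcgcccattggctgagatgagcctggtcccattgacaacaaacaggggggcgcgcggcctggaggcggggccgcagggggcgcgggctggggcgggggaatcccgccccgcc
A match is a description of letters in this window and not a mapped site, and no binding data were used. Only 1 start per gene was searched, and it can lie away from the GENCODE 29 start. IDI1, on the minus strand, starts at 1049170 in GENCODE 29, while its window spans 1056655 to 1056954. The lack of a match therefore covers the searched window only.

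Among the 4 fatty acid synthesis mRNAs, FASN and ACLY fell and ACACA rose in EV 100K against EV 2.8K, and SCD did not pass; their median log2 difference was -0.51. FASN, the multidomain enzyme that builds palmitate, lies on chromosome 17 (82078333 to 82098332, minus strand). It stood at 505, 402 and 668 CPM among the EV 2.8K libraries, 224, 226 and 329 in EV 10K, and 105, 128 and 140 in EV 100K. The 3 pellets formed 3 separate ranges in descending order. FASN fell by 1.01 on the log2 scale from EV 2.8K to EV 10K (SE 0.23, adjusted p = 0.0104), by 1.07 from EV 10K to EV 100K (SE 0.23, adjusted p = 0.00463) and by 2.09 over both steps (SE 0.24, adjusted p = 3.2e-06). It is the only one of the 29 called in every pellet comparison, although its first step was lost without EV 2.8K replicate 3 (adjusted p = 0.0564), EV 10K replicate 1 (0.0663) or EV 10K replicate 2 (0.0772).

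ACACA encodes the acetyl-CoA carboxylase that supplies FASN with malonyl-CoA, 1 step earlier in the same pathway, and lies on the same chromosome (37084988 to 37406818, minus strand). It ran opposite to FASN, with 41.4, 72.4 and 85.2 CPM among the EV 2.8K libraries, 104, 97.4 and 108 in EV 10K, and 169, 179 and 169 in EV 100K. Here too the 3 pellets were separate, in ascending order. ACACA rose by a log2 difference of 1.37 in EV 100K against EV 2.8K (SE 0.25, adjusted p = 0.000441) and by 1.13 without EV 2.8K replicate 1 (adjusted p = 0.000343). Its single steps, 0.64 from EV 2.8K to EV 10K (adjusted p = 0.143) and 0.73 from EV 10K to EV 100K (adjusted p = 0.0681), did not pass.

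ACLY, ATP citrate lyase, which makes cytosolic acetyl-CoA for both pathways (chromosome 17, 41866908 to 41930542, minus strand), had 169, 183 and 292 CPM among the EV 2.8K libraries, 137, 157 and 216 in EV 10K, and 98.6, 141 and 112 in EV 100K. EV 100K was separate below EV 2.8K and overlapped EV 10K by 1 library. ACLY fell by 0.88 on the log2 scale against EV 2.8K (SE 0.25, adjusted p = 0.0149), a call lost without EV 2.8K replicate 3 (-0.55, adjusted p = 0.12), EV 100K replicate 1 (adjusted p = 0.0759) or EV 100K replicate 3 (adjusted p = 0.0525). SCD, the stearoyl-CoA desaturase, had 53.5, 156 and 277 CPM among the EV 2.8K libraries, 84.2, 110 and 128 in EV 10K, and 119, 136 and 189 in EV 100K. The pellets overlapped for SCD, and the log2 difference between EV 100K and EV 2.8K was -0.14 (95% interval -0.94 to 0.67). Without EV 2.8K replicate 1 it was -0.55 (-1.06 to -0.05, adjusted p = 0.132), and both intervals exclude a difference of the size of FASN. Between EV 10K and EV 2.8K, SCD differed by -0.60 (adjusted p = 0.474) and without that library by -1.01 (adjusted p = 0.0181).

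Spread within a pellet was largest in EV 2.8K. The median coefficient of variation of the 29 mRNAs was 44.9% for EV 2.8K, 23.2% for EV 10K and 17.9% for EV 100K, against 35.7%, 30.0% and 23.6% for tested genes in the same range of CPM. EV 100K held the library with the lowest total and had, by this median, the closest replicates.

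The cell library was compared with the mean of the 3 pellets in a fit on all 10 libraries, in which it was assumed to vary like the EV libraries. The median prior degrees of freedom of that fit were infinite. At such a value a gene's own replicate spread does not enter its p-value, which rests on the spread shared across genes. Among the 29, 4 were higher in EVs (HMGCS1, PMVK, IDI1 and INSIG1) and 1 was lower (FASN), in a comparison that called 4.43% of 22370 genes, 2.56% higher and 1.88% lower. The median log2 difference was 0.21 for the 29 and -0.16 for all genes tested, and without EV 2.8K replicate 3 it turned to -0.05 for the 29 (-0.20 for all genes). Of all genes called, 57.7% were higher in EVs; with DESeq2 size factors this share was 68.7% and the median of all genes moved by 0.119 on the log2 scale. Cell values below come from 1 library, so a difference from it has no replicate check on the cell side.

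INSIG1 stood furthest above the cells. Its level was 11.2 CPM in the cells, below every EV library, and the pellet means were 426% (EV 2.8K), 406% (EV 10K) and 830% (EV 100K) of it. The log2 difference of the pellet mean was 2.40 (SE 0.50, adjusted p = 8.28e-05), and INSIG1 was called in each pellet, with 2.09 for EV 2.8K, 2.04 for EV 10K and 3.07 for EV 100K (adjusted p = 0.00321, 0.00216 and 5.45e-07). It was higher in 9 of 9 EV libraries; STARD4 was too, at 4.02 CPM in the cells, but its log2 difference of 1.61 (SE 1.07) did not pass (adjusted p = 0.626). SCAP was below the cell level of 93.1 CPM in 9 of 9, with a log2 difference of -0.65 (adjusted p = 0.496).

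HMGCS1 and IDI1 were at 39.7 and 17.1 CPM in the cells. Each was lower than that only in EV 2.8K replicate 1, and their EV 100K means reached 366% and 509% of the cell level. Log2 differences of the pellet mean were 1.32 for HMGCS1 (SE 0.39, adjusted p = 0.0224) and 1.49 for IDI1 (SE 0.48, adjusted p = 0.0488). PMVK, at 21.2 CPM in the cells, had a log2 difference of 1.48 (SE 0.46, adjusted p = 0.0333). The call of IDI1 was lost in 11 and that of PMVK in 10 of 13 other settings, at adjusted p up to 0.19 and 0.624. For HMGCS1 it was lost when mitochondrially encoded genes and catalogue entries were left out (adjusted p = 0.0542).

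FASN stood at 499 CPM in the cells, within the range of EV 2.8K, and the pellet means were 105% (EV 2.8K), 52.0% (EV 10K) and 24.9% (EV 100K) of it. The log2 difference of the pellet mean was -0.95 (SE 0.27, adjusted p = 0.0114), and it was not called with DESeq2 size factors (adjusted p = 0.0528) or DESeq2's Wald test (adjusted p = 0.0759). In EV 100K alone it was -1.99 (SE 0.29, adjusted p = 8.24e-10), and in EV 2.8K alone 0.07. ACLY was also lower in EV 100K than in cells, by a log2 difference of -1.0 (SE 0.33, adjusted p = 0.0253).

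Pellet by pellet, the fitted log2 differences of EV 2.8K from the cells were positive for all 8 mevalonate and all 11 sterol enzymes, with medians of 0.77 and 0.51, but these enzymes did not pass. Over the 29, 4 values (13.8%) were negative against 48.45% of all genes. Above the cell level in all 3 libraries were 11 mRNAs for EV 2.8K, 10 for EV 10K and 11 for EV 100K. Below it in all 3 libraries were 2, 7 and 14. The shares over all genes were not counted for this. Of the 29, the test called 1 higher in EV 2.8K (INSIG1; 2.23% of genes called, 1.54% higher and 0.693% lower), 2 higher in EV 10K (INSIG1 and PMVK; 4.43% called, 2.82% higher and 1.60% lower), and 4 higher and 2 lower in EV 100K (HMGCS1, PMVK, IDI1, INSIG1, FASN and ACLY; 10.0% called, 4.59% higher and 5.46% lower). In EV 100K the sterol enzymes had a median of -0.83 and 9 of 11 values were negative. These comparisons share the cell library.

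**Figure D4:**
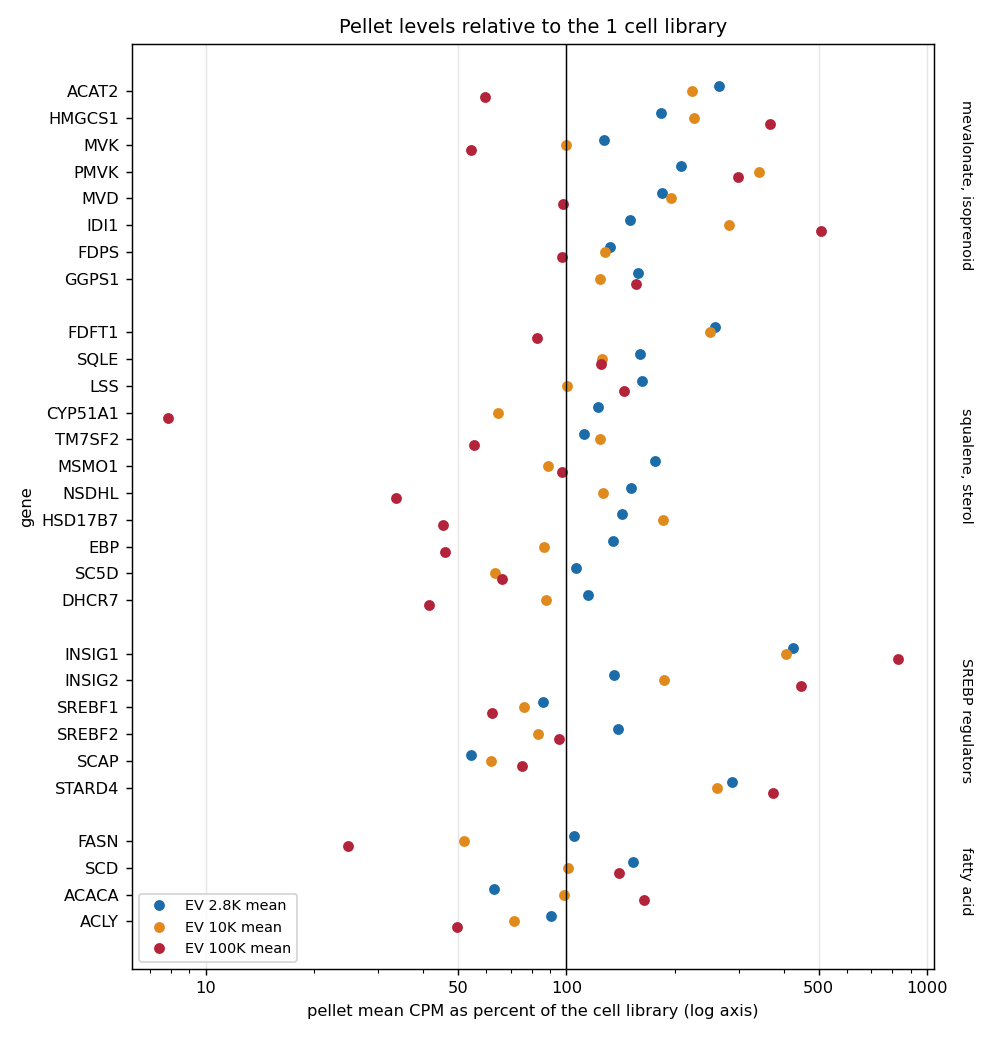
Pellet mean of each mRNA as a percentage of the 1 cell library, on a log axis, with a line at the cell level. INSIG1 lies at 426%, 406% and 830%, and FASN descends from 105% over 52.0% to 24.9%.

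The order of the levels within the pathway differed between pellets. Per kilobase of exonic sequence, FASN was the most abundant of the 29 in the cells (53.3 CPM per kb) and in EV 2.8K, the fourth in EV 10K and the tenth in EV 100K. PMVK moved from rank 6 in the cells to rank 1 in EV 10K and in EV 100K (49.5 CPM per kb). HMGCS1 went from rank 12 in the cells to rank 2 in EV 100K (30.9 CPM per kb), close to FDPS (30.1) and SCD (27.6), and INSIG1 from rank 22 to rank 5 (25.4). SQLE held rank 8 in every group.

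Base composition and length, which the choice of genes did not use, are given beside these calls. The transcripts of HMGCS1, IDI1 and ACACA had 40.2% to 48.7% G and C, those of the 8 that fell 48.6% to 65.3%, and those of the other 18 34.2% to 65.6%. Across the 29, GC content and the log2 difference between EV 100K and EV 2.8K had a Spearman rho of -0.31, and transcript length one of 0.29. Across 11988 protein-coding genes these were -0.20 and 0.26. Genes are not independent replicates and share the libraries, so these are descriptions.

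Further genes of the same metabolism, in lists made by function, were counted in EV 100K against EV 2.8K with the same background. Of 14 genes that use isoprenoids, 3 rose and 11 did not pass (median 0.66). RABGGTB, a subunit of the enzyme that prenylates Rab GTPases, rose by a log2 difference of 3.06 (SE 0.25, adjusted p = 1.03e-07), from 41.3, 52.9 and 38.2 CPM in EV 2.8K over 233, 129 and 154 in EV 10K to 398, 308 and 403 in EV 100K. Its 3 pellets were separate. PDSS1, which builds the side chain of ubiquinone, rose by 3.27 (SE 1.04), with 0, 2.53 and 1.30 CPM in EV 2.8K and 10.0 to 17.1 CPM in EV 100K. Of 9 genes that activate or restrain SREBP, 1 rose and 3 fell (median -0.38). UBE2G2, a ubiquitin-conjugating enzyme of degradation at the endoplasmic reticulum, rose by 1.10 (SE 0.22), while the COPII coat subunits SEC24D and SEC23A, which carry SCAP and SREBP out of the endoplasmic reticulum, fell by 1.72 and 1.48.

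Of 18 genes of cholesterol uptake, transport and storage, 1 rose and 6 fell (median -0.80). The cholesterol exporter ABCG1 fell by 2.13, the sterol-sensing receptor NR1H2 fell by 1.65, and STARD3, a late-endosomal sterol carrier, rose by a log2 difference of 1.55. Of the 22 tested among 24 genes of fatty acid elongation, desaturation, activation and supply, 8 fell and 14 did not pass (median -0.56). FADS3, of the desaturase family, fell by 3.08, and TECR, the last reductase of the elongation cycle, fell by 2.49. Of the 21 tested among 22 genes of fatty acid oxidation, the reverse pathway, 1 rose and 6 fell (median -0.46): ACAA2, a mitochondrial thiolase, rose by a log2 difference of 2.13, while DECR1 and ECHS1, enzymes of mitochondrial beta-oxidation, fell by 1.44 and 1.27.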

How the data were processed

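RNA of 9 EV libraries and 1 cell library was prepared with a SMARTer stranded total RNA kit, per the labels' protocols. The tools named in the submitters' processing notes are STAR 2.6.1d, featureCounts 1.6.3, cutadapt 2.7 and bcl2fastq 2.19.1.403, with the build GRCh38; the sources used here do not state the annotation, the strand setting or how reads with several matches were treated. The authors deposited whole-number read counts per gene, not normalized: 45574 entries with GENCODE 29 identifiers and 49372 of a long noncoding RNA catalogue. Groups come from the sample titles. Total counts per library set the precision; a count of 0 allows 3 counts of the total, and such limits cover counting error only.

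Differences were tested with edgeR 4.0.16 under R 4.3.3 (filterByExpr with a minimum count of 10, TMM, robust quasi-likelihood fit, Benjamini-Hochberg adjustment over all genes tested, threshold 0.05). Pellets were compared in a fit of the 9 EV libraries (15525 genes, with 6 residual and 11.7 prior degrees of freedom), cells in a fit of all 10 (22370 genes, with infinite prior degrees of freedom). The 95% intervals are normal intervals of the log2 difference. Exonic lengths and coordinates come from GENCODE 29 and promoters from RefSeq. Alternatives were DESeq2 1.42.0 size factors and Wald test, no filter, entries left out, other sets of libraries, a block by set number, and each library left out.

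All 29 genes are named or counted; of each further list, up to 2 genes with the largest rise and 2 with the largest fall past the threshold are named. The genes, lists and tests were chosen with earlier results of these data known. A further list and a marker gene are not reported here.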

Additional observations from a re-analysis of the deposited data

How the results depend on the processing

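For EV 100K against EV 2.8K, ACACA, ACAT2, EBP, FASN, FDFT1, HMGCS1, IDI1 and NSDHL were called in all 16 other settings. The number of the 29 mRNAs called higher was 3, and it was 5 with DESeq2 size factors, with no filter on low counts, with DESeq2's Wald test, with the replicate block and in the fit of all 10 libraries; leaving out 1 library gave 3 to 5 higher (5 without EV 2.8K replicate 3) and 5 to 10 lower (5 on leaving out EV 2.8K replicate 3 or EV 100K replicate 1, 10 without EV 2.8K replicate 1). INSIG1 and INSIG2 passed in 7 settings each and CYP51A1 in 6. For EV 10K against EV 2.8K, leaving out 1 library gave 0 to 2 higher and 0 to 2 lower: without EV 2.8K replicate 3, IDI1 and ACACA were higher and none was lower, without EV 2.8K replicate 1, SCD was lower beside FASN, and without EV 10K replicate 1 or 2 none was called. For EV 100K against EV 10K the number called higher was 1 with size factors, with no filter and in the fit of all 10 libraries, and 2 with the Wald test; in the fit of the 6 libraries compared 4 were higher and 7 lower. Leaving out 1 library gave 0 to 4 higher and 3 to 7 lower there; without EV 2.8K replicate 1, a library of neither pellet compared there, ACACA, HMGCS1, IDI1 and INSIG1 were higher and 7 were lower. For the pellet mean against cells, 2 were higher with no filter and with the Wald test and 1 without mitochondrially encoded genes and catalogue entries, and none was lower with size factors or the Wald test. EV 2.8K alone gave 1 higher and 0 lower, EV 10K alone 2 and 0, EV 100K alone 4 and 2; leaving out 1 EV library gave 2 to 4 higher and 1 lower, with 2 higher for 7 of the 9 libraries left out. The cause of these changes was not tested. Fits with 1 library left out have fewer samples, and the number of calls rose in some of them and fell in others. FASN in EV 2.8K alone against cells was 0.0745 on the log2 scale, the only value of a called gene that changed sign. Over single mRNAs and settings, 1749 values stayed on their side of the threshold, 49 passed newly and 53 no longer passed. The sign changed for 1 called value (FASN, above) and for 84 values that were not called, such as SCD in EV 10K against EV 2.8K.

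Over all genes, calls for EV 10K against EV 2.8K numbered 990, and 2148 with the Wald test, 561 in the fit of 6 libraries and 557 without EV 10K replicate 1. For EV 100K against EV 10K they numbered 1697, and 2777 in the fit of 6 libraries, 2549 without EV 2.8K replicate 1, 1033 without EV 10K replicate 3, 979 without EV 100K replicate 1 and 1017 without EV 100K replicate 3. Against cells they numbered 992, and 1529 without EV 2.8K replicate 1, 499 with EV 2.8K alone and 2247 with EV 100K alone. Same-numbered libraries of different pellets had small correlations: the 9 pairs lay at -0.009 to 0.048, none over 0.1. However, 8 of 9 libraries correlated best with one of their own number. The summed share of the lipid mRNAs also rose from replicate 1 to replicate 3 within each pellet. Correlations this small do not decide whether the set numbers pair the libraries, and the tests above did not pair them. With the replicate block, the calls among the lipid mRNAs were 0 higher and 1 lower for EV 10K against EV 2.8K. They were 5 and 7 for EV 100K against EV 2.8K, and 0 and 5 for EV 100K against EV 10K.

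The limits are 3 libraries per pellet, 1 cell library, 1 cell line, and an EV 2.8K library (replicate 1) that stood apart. Results also depended on EV 2.8K replicate 3: without it the median of the 29 for EV 100K against EV 2.8K went from -0.55 to -0.29. Scarce mRNAs (CYP51A1, GGPS1, HSD17B7, MSMO1) had counts too few or too uneven for differences to be resolved. Levels are relative to each library's total, so the amount of RNA per pellet is not known.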

Other observations

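Ratios of raw counts within a library do not depend on how libraries are scaled. The pairs below were chosen after their values were seen, so they are given as values with no test. FASN counts were 12.2, 5.55 and 7.84 times those of ACACA in EV 2.8K replicates 1 to 3, 2.15, 2.32 and 3.05 times in EV 10K, 0.619, 0.716 and 0.824 times in EV 100K, and 4.74 times in the cells. The cell ratio lay between those of EV 2.8K and EV 10K, and ACACA outnumbered FASN in EV 100K only. IDI1 counts were 0.180, 0.398 and 0.459 times those of FDFT1 in EV 2.8K, 0.910, 0.925 and 0.512 times in EV 10K, 4.92, 3.24 and 3.84 times in EV 100K, and 0.647 times in the cells. ACAT2 counts were 1.76, 1.13 and 1.58 times those of HMGCS1, the next enzyme of the pathway, in EV 2.8K, 0.887, 1.07 and 0.924 times in EV 10K, 0.0750, 0.209 and 0.193 times in EV 100K, and 0.968 times in the cells. FASN and ACLY, the pair with the same direction, had count ratios of 2.99, 2.20 and 2.29 in EV 2.8K, 1.64, 1.44 and 1.52 in EV 10K, 1.06, 0.909 and 1.24 in EV 100K, and 2.11 in the cells. For all 4 pairs every EV 100K library lay outside the range of all other libraries.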
